A study of Macaca mulatta with 13 samples.

Results

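The genes described here are 10 immediate early genes of rhesus macaque colon leukocytes: FOS, FOSB, JUN, JUNB, JUND, EGR1, ATF3, NR4A1, NR4A2 and DUSP1. They were chosen by symbol, and each was found as 1 row among the 34628 genes measured. Immediate early genes are transcribed within minutes of a stimulus, without new protein being made first. The FOS and JUN families pair through leucine zippers to form AP-1, the DNA-binding complex through which antigen receptor, cytokine and stress signals reach many target genes. NR4A1 and NR4A2 encode orphan nuclear receptors that are switched on by antigen receptor signalling in lymphocytes. In gut tissue, memory lymphocytes that reside there are known to carry high levels of several of these transcripts, and the same transcripts are known to be induced when tissue is dissociated into single cells.

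RNA was measured per cell, as counts of unique molecular identifiers (UMIs, each standing for 1 captured RNA molecule), in CD45-positive leukocytes sorted from thawed colon of rhesus macaques (Macaca mulatta). The labels name 13 libraries in 4 groups: 4 host fractions, 2 donor fractions and 3 libraries of host and donor cells together, all from animals with acute graft-versus-host disease after a transplant of allogeneic blood-forming cells, and 4 libraries from untransplanted healthy controls. Host and donor fractions were parted by the macaque MHC class I molecule MAMU-A001, and cells that stained for the intravascular CD45 label were sorted away. Ages, sexes and further treatments of the animals are not stated in these labels. Each barcode in the matrix ends in a number from 1 to 13, but the sources used here do not say which number belongs to which label. The order of the labels was not used in its place, so no comparison between host, donor, combined and healthy libraries was made, and the libraries are called by their barcode number. Whether 2 libraries come from the same animal or group is therefore unknown, the comparisons below are between cell classes within a library, and no p-value is given.

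Library 4 shared 5323 barcodes with library 6, against 6 to 55 for the other pairs among libraries 1 to 7, and its 39 cells were left out. That left 20567 of the 20606 cells the authors kept, in 12 libraries of 29 to 2858 cells. Pairs among libraries 8 to 13 shared 1 to 10 barcodes, and pairs across that divide shared 0 to 3. Libraries 8 to 13 and libraries 1 to 7 are therefore treated as 2 barcode sets. The labels state that 2 versions of the droplet kit were used, without saying which libraries each one made. T cells were cells with at least 3 UMIs of CD3D, CD3E and CD3G together, B cells had at least 2 of MS4A1 and CD79A, and plasma cells had at least 1% of their UMIs from JCHAIN, the joining chain of secreted antibodies. The 2549 cells that met more than 1 gate, with a median of 10917 UMIs, were in no class. No doublet caller was run, and whether these cells are doublets was not tested. With at least 20 cells asked of a class in a library, T cells could be described in 11 libraries (34 to 2157 cells each), B cells in 6 (41 to 1450 cells) and plasma cells in 7 (33 to 393 cells). The median UMIs per cell lay between 2082.5 and 3715.5 in T cells, between 3106.5 and 3603 in B cells and between 6367 and 16001.5 in plasma cells. The markers fitted the gates. The summed level of 5 T cell markers was 2942 to 9105 CPM (a gene's UMIs scaled to the total of the class) in T cells, against 93.7 to 164 CPM in B cells and 15.0 to 64.3 CPM in plasma cells.

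Levels in CPM are taken over all cells of a class in a library together. Intervals are exact 95% Poisson or binomial intervals and cover counting error only. A gene is said to be higher or lower in every library where the log2 ratio of its levels, with 0.5 UMI added to each count, has 1 sign in all the libraries compared. That rule has no test behind it, so each count of members is set beside the percent of all measured genes (mean of at least 10 CPM) that meet it.

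**Figure D1:**
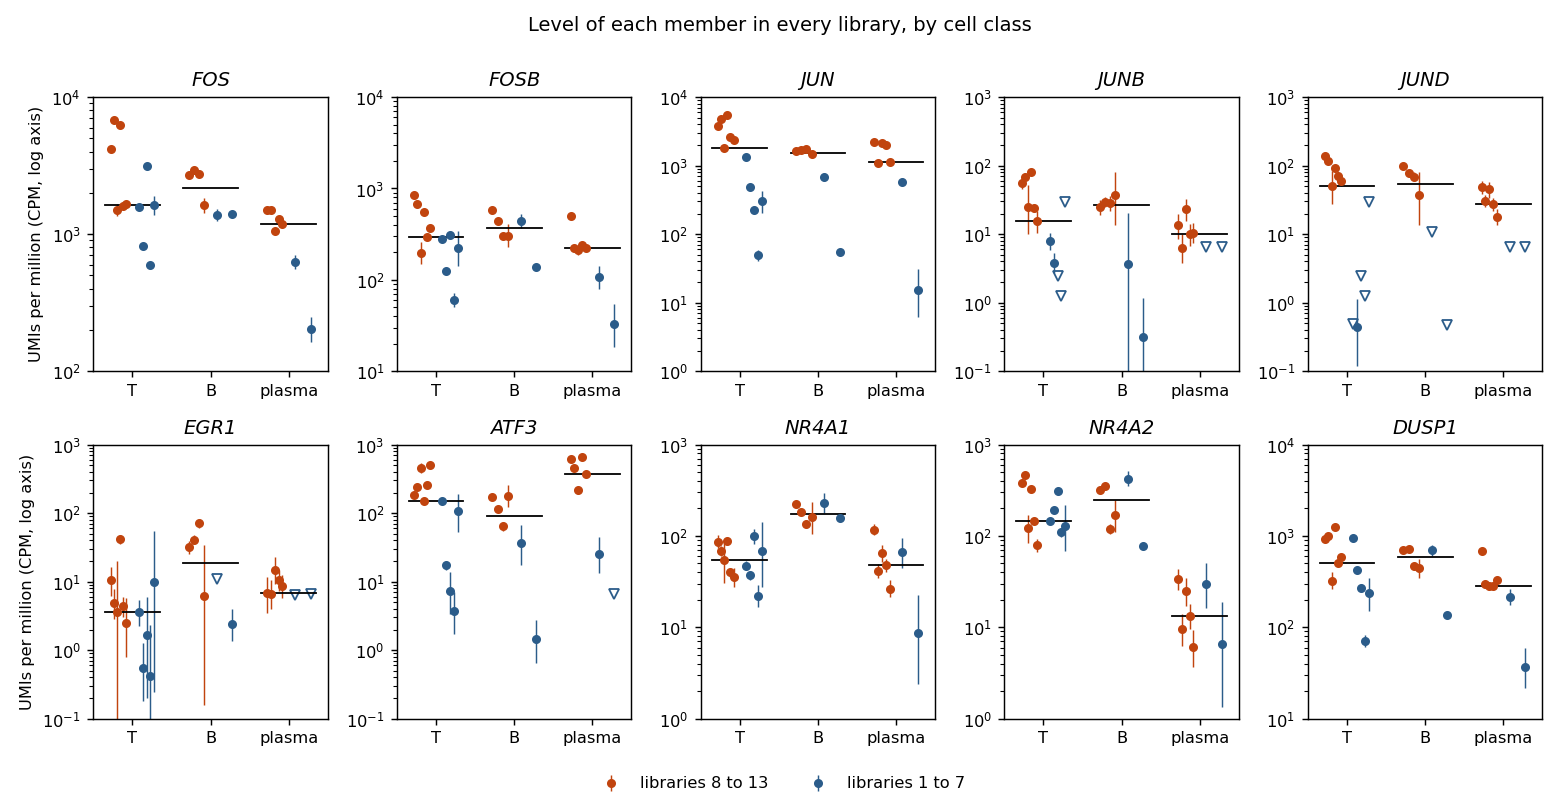
Level of each of the 10 genes in T, B and plasma cells, in CPM on a log axis. Each point is 1 library with its 95% Poisson interval, orange for libraries 8 to 13 and blue for libraries 1 to 7, black lines are medians over libraries, and open triangles mark libraries with 0 UMIs, drawn at the level of 3 UMIs. NR4A2 is far lower in plasma cells, NR4A1 is highest in B cells, and JUND is at or near 0 in libraries 1 to 7.

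FOS, the founding FOS family member, was present in all libraries and classes. In T cells FOS stood at 6787, 6315 and 4192 CPM in libraries 9, 11 and 8, at 3147 CPM in library 3, between 1509 and 1669 CPM in libraries 10, 1, 12, 6 and 13, at 822 CPM in library 2 and at 596 CPM in library 5. Within the run from library 10 to library 13 each neighbouring pair had overlapping Poisson intervals, though those of libraries 1 and 13 did not overlap. In B cells FOS stood at 2945, 2738 and 2703 CPM in libraries 9, 11 and 8, at 1627 CPM in library 12, 1395 CPM in library 3 and 1381 CPM in library 2. In plasma cells it lay between 1049 and 1505 CPM in the 5 libraries of the second barcode set, at 624 CPM in library 2 and at 203 CPM in library 5. The median over libraries was 1619 CPM in T cells, 2165 CPM in B cells and 1181 CPM in plasma cells, but these medians rest on different libraries.

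Set against B cells of the same library, T cells had more FOS in 4 of 6 libraries. The log2 ratio was 1.21 in library 11, 1.20 in library 9, 1.17 in library 3 and 0.63 in library 8, against -0.03 in library 12 and -0.75 in library 2. FOSB, a further FOS family member, behaved alike, with T cells higher in the same 4 libraries, a median log2 ratio of 0.57 and the lowest value, -1.82, again in library 2. In T cells FOSB ranged from 60.2 CPM in library 5 to 842 CPM in library 8, against 137 CPM in library 3 to 579 CPM in library 8 for B cells and 32.7 CPM in library 5 to 504 CPM in library 8 for plasma cells.

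JUN, the main zipper partner of FOS in AP-1, varied more between libraries than FOS. In T cells JUN reached 5500, 4737 and 3766 CPM in libraries 11, 9 and 8, 2620 CPM in library 12, 2377 CPM in library 13, 1829 CPM in library 10 and 1342 CPM in library 1. It was at 490 CPM in library 2, 304 CPM in library 6, 229 CPM in library 3 and 49.5 CPM in library 5, so that the highest T cell level was 111 times the lowest. JUN had a median log2 ratio of 1.34 in T over B cells (2.54-fold), and T cells were higher in 5 of 6 libraries, from 0.83 in library 12 to 2.05 in library 3, with library 2 at -0.49. Against plasma cells of the same library it was higher in T cells in 6 of 7 libraries, with a median of 0.75. That ratio turned to -0.69 once the median of all genes was taken off, a shift of scale described below.

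JUN's share of the UMIs of JUN and FOS together set 3 libraries apart. In T cells JUN made up 6.77% of these UMIs in library 3 (95% interval 6.02 to 7.58), 7.66% in library 5 (6.39 to 9.09) and 15.8% in library 6 (its interval reaching up to 21.7). In the other 8 libraries it made up 37.4% to 62.2%. The other classes of libraries 3 and 5 were low as well, with 3.81% in the B cells of library 3 and 7% in the plasma cells of library 5, against 33.3% to 47.5% and 42.3% to 67.5% in the B and plasma cells of the remaining libraries. Library 3 was thus low in JUN in T and in B cells, while its FOS level was the fourth highest in T cells and the second lowest in B cells. Library 5 had the lowest levels of both genes in T and in plasma cells.

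JUNB and JUND, the other JUN proteins, gave few UMIs, and nearly all of them came from libraries 8 to 13. In T cells JUND had 1873 UMIs of 21122720 in libraries 8 to 13, against 4 of 19010106 in libraries 1 to 7, and all 4 were in library 2. In B cells JUND had 764 UMIs of 9467654 against 0 of 6555892, and in plasma cells 372 of 12210843 against 0 of 925358. JUNB had 1006 UMIs in T cells of libraries 8 to 13 and 84 in T cells of libraries 1 to 7. In libraries 8 to 13 JUND in T cells lay between 50.4 and 138 CPM and JUNB between 15.4 and 80.5 CPM. The divide between the barcode sets runs through every class, so for JUND and JUNB the barcode set and any biological difference between the libraries cannot be told apart.

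In the 4 libraries of the second barcode set with B cells, JUND was higher in T cells by a log2 ratio of 0.41 to 0.82. JUNB was higher in libraries 8, 9 and 11, by 1.19 at the least, but lower in library 12 (-0.75). The JUND value of 0.82 is from library 12 too, where B cells had 6 UMIs of JUNB and 6 of JUND.

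EGR1, a zinc finger factor induced through serum response factor, was among the rarest of the members in T cells, with 0.412 CPM (1 UMI) in library 5 at the low end and 41.3 CPM in library 11 at the high end. In B cells it had 71.7, 41.2 and 31.7 CPM in libraries 11, 9 and 8, then 6.23 CPM in library 12, 2.39 CPM in library 3 and 0 UMIs in library 2, where 3 UMIs would have been 10.8 CPM. The log2 ratio of EGR1 in T over B cells was negative in all 6 libraries (median -1.33), but in library 2, with 5 UMIs in T cells and 0 in B cells, the sign was made by the 0.5 UMI added. The B cells of library 12 had 1 UMI, under the limit of 3 as well. EGR1 was lower in 5 of 6 libraries with 1 CPM added in place of 0.5 UMI (median -0.60) and with thinned cells (-2.03), and in 7 of 10 with cells of several gates kept (-0.14). In libraries 9 and 8, with 18 UMIs each in T cells and 172 and 83 in B cells, the ratios were -3.04 and -1.58.

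ATF3, a zipper factor induced by stress that can repress its targets, was lower in T than in plasma cells in 4 of 7 libraries by CPM. Plasma cells of libraries 12, 8, 10, 13 and 11 had 668, 615, 450, 373 and 216 CPM, those of library 2 had 25.7 CPM and those of library 5 had 0 UMIs. T cells ranged from 498 CPM in library 13 and 461 CPM in library 10 down to 7.40 CPM in library 3 and 3.71 CPM in library 5, a 134-fold range. In T over plasma cells the log2 ratio of ATF3 was -1.72 in library 8, -1.37 in library 12, -0.63 in library 2 and -0.50 in library 11. It was 0.04 and 0.42 in libraries 10 and 13, and 1.85 in library 5, where plasma cells had 0 UMIs. With the median of all genes taken off, ATF3 was lower in T cells in 6 of 7 libraries (median -1.86). As UMIs per cell it was lower in 6 of 7 as well (median -1.89). Against B cells, plasma cells had more ATF3 in libraries 8, 11 and 12, where the B over plasma log2 ratios were -1.85, -1.74 and -1.86, and library 2 went the other way (0.50, from 10 and 12 UMIs).

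NR4A1, also called Nur77 and widely used as a reporter of antigen receptor signalling, was the member that set B cells apart. In B cells it stood at 231, 223, 185, 162, 157 and 135 CPM in libraries 2, 8, 9, 12, 3 and 11. T cells of these 6 libraries had 36.9, 86.7, 68.2, 40.1, 99.5 and 87.5 CPM in the same order, so the highest T cell level lay below the lowest B cell level. The log2 ratio of T over B cells was negative in all 6 libraries, from -0.63 in library 11 to -2.65 in library 2, with a median of -1.40 (2.63-fold lower in T cells). It stayed lower in all 6 libraries with the median of all genes taken off (median -1.16), and the median remained negative under all 15 other settings, between -1.90 and -0.35. The weakest of these kept cells of several gates in both classes, which brought in 4 more libraries and left NR4A1 lower in T cells in 7 of 10. Plasma cells ranged from 8.72 CPM in library 5 to 117 CPM in library 8, and B over plasma cells gave a positive ratio in all 4 libraries (0.93 to 1.78), which became -0.28 in the median when the median of all genes was taken off.

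NR4A2, the sister receptor also called Nurr1, was the member with the widest gap between lymphocytes and plasma cells. T cells had 463, 377, 325, 314, 192, 147, 147, 128, 122, 109 and 79.0 CPM in libraries 9, 8, 11, 3, 2, 1, 12, 6, 10, 5 and 13. Plasma cells had 33.6, 30.0, 24.7, 13.3, 9.51, 6.54 and 6.03 CPM in libraries 8, 2, 11, 12, 10, 5 and 13. The highest plasma cell level was thus below the lowest T cell level. The log2 ratio of T over plasma cells was between 2.63 (library 2) and 3.84 (library 5) in the 7 libraries, with a median of 3.68 (12.8-fold). In B over plasma cells NR4A2 was higher by 2.26 to 3.78 in the 4 libraries. Both held after the median of all genes was taken off, at 2.01 and 1.82 in the median and in every library. Under the 15 other settings both ratios were positive in every library compared, with medians of 1.64 (as UMIs per cell) to 3.78 for T over plasma and of 0.70 (cells of several gates kept) to 3.78 for B over plasma cells. Between T and B cells NR4A2 had no common direction: its log2 ratio was 1.44 in library 11 and positive in libraries 3, 8 and 9 as well, against -0.22 in library 12 and -1.15 in library 2. NR4A3, the remaining member of that receptor family, gave a similar contrast, with median log2 ratios of 3.46 in T over plasma and 3.45 in B over plasma cells and the same sign in all libraries.

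DUSP1, a phosphatase that is itself induced early and switches off the MAP kinases upstream of AP-1, stood in T cells at 1239, 991, 942 and 921 CPM in libraries 11, 9, 1 and 8, at 582, 500, 428 and 324 CPM in libraries 13, 12, 2 and 10, at 270 and 236 CPM in libraries 3 and 6 and at 71.3 CPM in library 5. In B cells it was between 443 and 719 CPM in 5 libraries and at 135 CPM in library 3. In plasma cells it was between 285 and 331 CPM in libraries 10, 11, 12 and 13, at 680 CPM in library 8, at 216 CPM in library 2 and at 37.1 CPM in library 5. T cells had more DUSP1 than B cells in 5 of 6 libraries (median log2 ratio 0.43), with library 2 at -0.71.

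**Figure D2:**
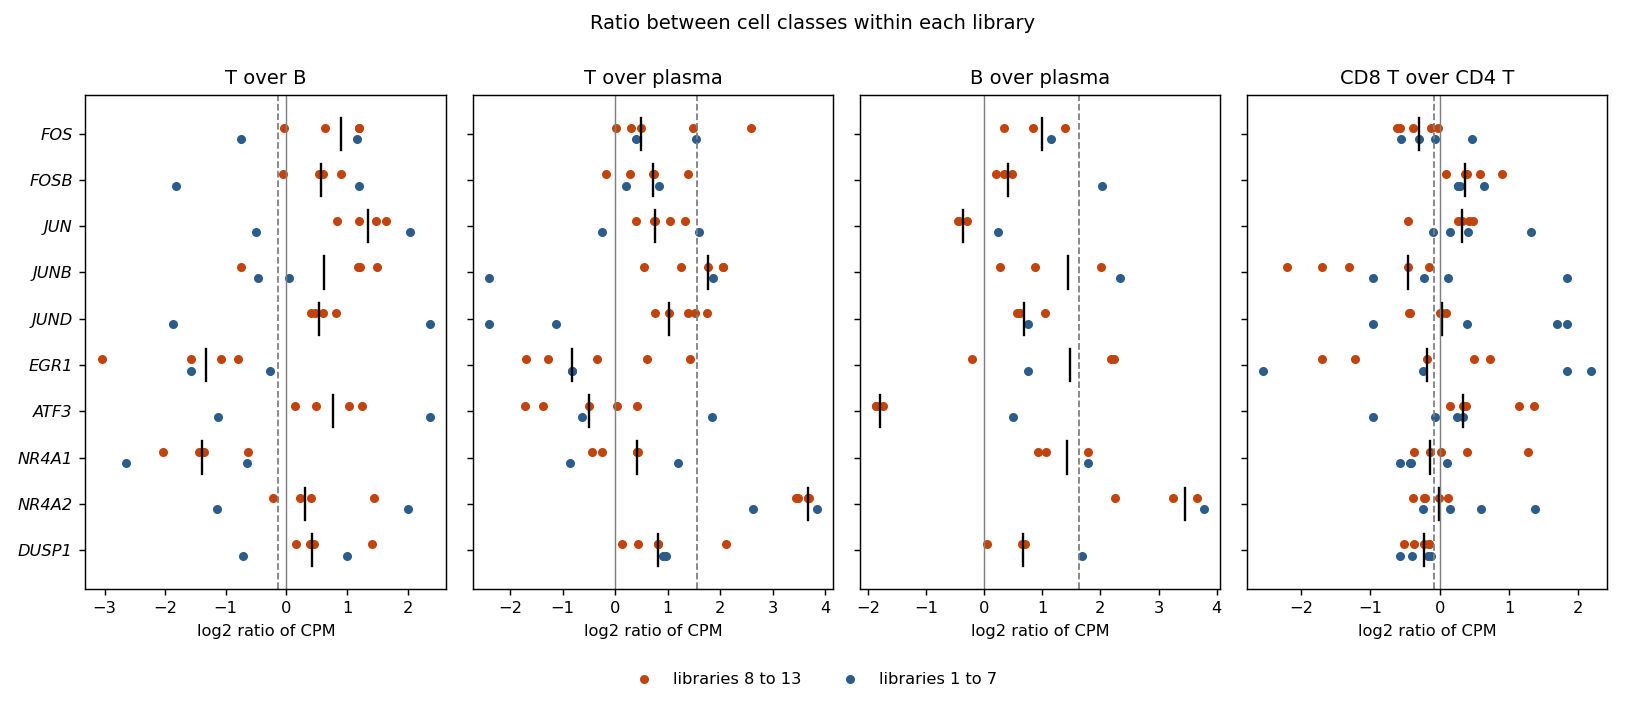
Log2 ratio of each gene's CPM between cell classes of the same library, for T over B, T over plasma, B over plasma and CD8 T over CD4 T cells. Points are libraries, orange for 8 to 13 and blue for 1 to 7, black ticks are medians, the solid line is 0 and the dashed line is the median of all measured genes. NR4A1 lies left of 0 in all 6 libraries of T over B, and NR4A2 lies right of both lines in all libraries of the plasma comparisons.

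Counted over the members, T over B cells gave 0 of 10 members higher in all 6 libraries, where 13.2% of 6534 measured genes were, and 2 of 10 lower (NR4A1, and EGR1 with the limit given for library 2), where 19.1% were. With the median of all genes taken off the members' counts were the same and the shares of all genes were 16.8% higher and 15.2% lower. The count of 0 rests on library 2, in which the ratio was negative for all 10 members. For JUNB (35 UMIs in T cells and 1 in B cells), JUND (4 and 0) and EGR1 (5 and 0) that sign was made by the 0.5 UMI added, since the plain CPM was higher in T cells. Without it JUN, JUND, ATF3 and DUSP1 were higher in T cells in all 5 remaining libraries, where 16.6% of genes were, and the same 2 members were lower, where 28.3% of genes were. For JUND this includes library 3, where both classes had 0 UMIs, so the sign there comes from the 0.5 UMI added. The B cells of library 2 numbered 65, and their summed plasma cell markers were the highest of any B cell group, at 2596 CPM against 524 to 1378 CPM in the other 5 libraries. Their part in the result was not tested. The 10 members summed were higher in T cells in 5 of 6 libraries, with a median log2 ratio of 0.90 and -0.88 in library 2.

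Plasma cells are known to spend a large part of their RNA on antibody transcripts, a share that was not measured here. Most measured genes were lower in them than in T or B cells on the CPM scale. The median log2 ratio of all measured genes was 1.56 in T over plasma cells (1.23 to 1.69 over libraries) and 1.64 in B over plasma cells (1.19 to 1.81). Of the 9 members measured in T over plasma cells, 3 were higher in all 7 libraries (FOS, NR4A2 and DUSP1), where 73.2% of 5508 genes were, and 0 were lower, where 5.37% were. With the median of all genes taken off, NR4A2 alone was higher in all 7, where 21.1% of genes were, and FOSB (median -0.89) and NR4A1 (-1.26) were lower in all 7, where 22.8% were. The median of FOS lay on the other side of 0 by that scaling, at -0.83, and that of DUSP1 did so at -0.75. On the scale of UMIs per cell, plasma cells held more of the summed members than T cells, at a log2 ratio of -0.96 for T over plasma.

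In B over plasma cells 7 of 10 members were higher in all 4 libraries, where 74.3% of 5708 genes were, and 0 were lower, where 4.54% were. With the median of all genes taken off, 1 was higher (NR4A2), where 24.3% of genes were, and 4 were lower (FOS at -0.61, JUN at -2.08, JUND at -0.83 and ATF3 at -3.50), where 26.2% were. For JUND, library 2 had 0 UMIs in both classes.

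CD8 T cells (a UMI of CD8A or CD8B and none of CD4) could be set against CD4 T cells (the reverse) in 9 libraries, and the differences were small. FOSB was higher in CD8 T cells in 9 of 9 libraries, by a median log2 ratio of 0.37 (1.29-fold) and from 0.09 in library 8 to 0.89 in library 12. With every cell thinned to 1500 UMIs it was higher in 8 of 9, library 5 going the other way, and the median was 0.34. DUSP1 was lower in 9 of 9, by a median of -0.22 and from -0.13 in library 1 to -0.57 in library 5. These were 1 of 9 measured members higher, where 1.7% of 6170 genes were, and 1 of 9 lower, where 3.47% were. With the median of all genes taken off, FOSB was still higher in 9 of 9 (0.39), where 2.3% of genes were, and DUSP1 was lower in 8 of 9, so that 0 members were lower in all, where 2.88% of genes were. FOS was lower in CD8 T cells in 8 of 9 libraries (median -0.29), the exception being library 3, where there were 23 CD8 T cells. JUN was higher in 7 of 9 (median 0.33), so FOS and JUN leaned opposite ways. NK or innate markers summed to 84.6 to 536 CPM in the CD8 T cells of these libraries, against 22.6 to 329 CPM in their CD4 T cells, and their part in the FOSB difference was not tested. Myeloid markers summed to 1342, 1345 and 1660 CPM in the CD8 T cells of libraries 1, 5 and 12, against 8000, 2478 and 5543 CPM in their CD4 T cells, and to at most 13.4 CPM in either class of the other libraries compared. In those other 6 libraries the log2 ratios were 0.09 to 0.64 for FOSB and -0.51 to -0.15 for DUSP1.

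Of 31 other immediate early genes, 29 were found and 23 measured in T over B cells, of which 1 was higher and 3 were lower in all 6 libraries, against the 13.2% and 19.1% of all genes given above. FOSL2, a FOS family member, was higher in T cells in all 6 libraries (median log2 ratio 2.20), and KLF4 (-1.69), DUSP2 (-0.73) and SGK1 (-1.10) were lower in all 6. ZFP36L2, an mRNA decay factor, had the highest median of this list, at 2.35. The median of the list was 0.32, against -0.16 for all measured genes. Among 10 measured zipper factors outside the members, MAF (2.55) and CREM (1.13) were higher in T cells in all 6 libraries, and BATF3 (-1.43), BACH2 (-1.19) and DDIT3 (-1.49) were lower in all 6. Among 7 NF-kB feedback genes TNFAIP3 was higher (2.15) and REL (-0.28) and RELB (-0.82) were lower in all 6, REL and SGK1 losing that when the median of all genes was taken off. Of 9 kinase and serum response factor pathway genes, MAP2K1 (0.37) and RPS6KA3 (2.51) were higher in all 6. In CD8 T over CD4 T cells BATF (-1.50) and MAF (-2.31) were lower in all 9 libraries, and so was DUSP2 (-1.15), while TNFAIP3 was higher in all 9 (0.71).

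**Figure D3:**
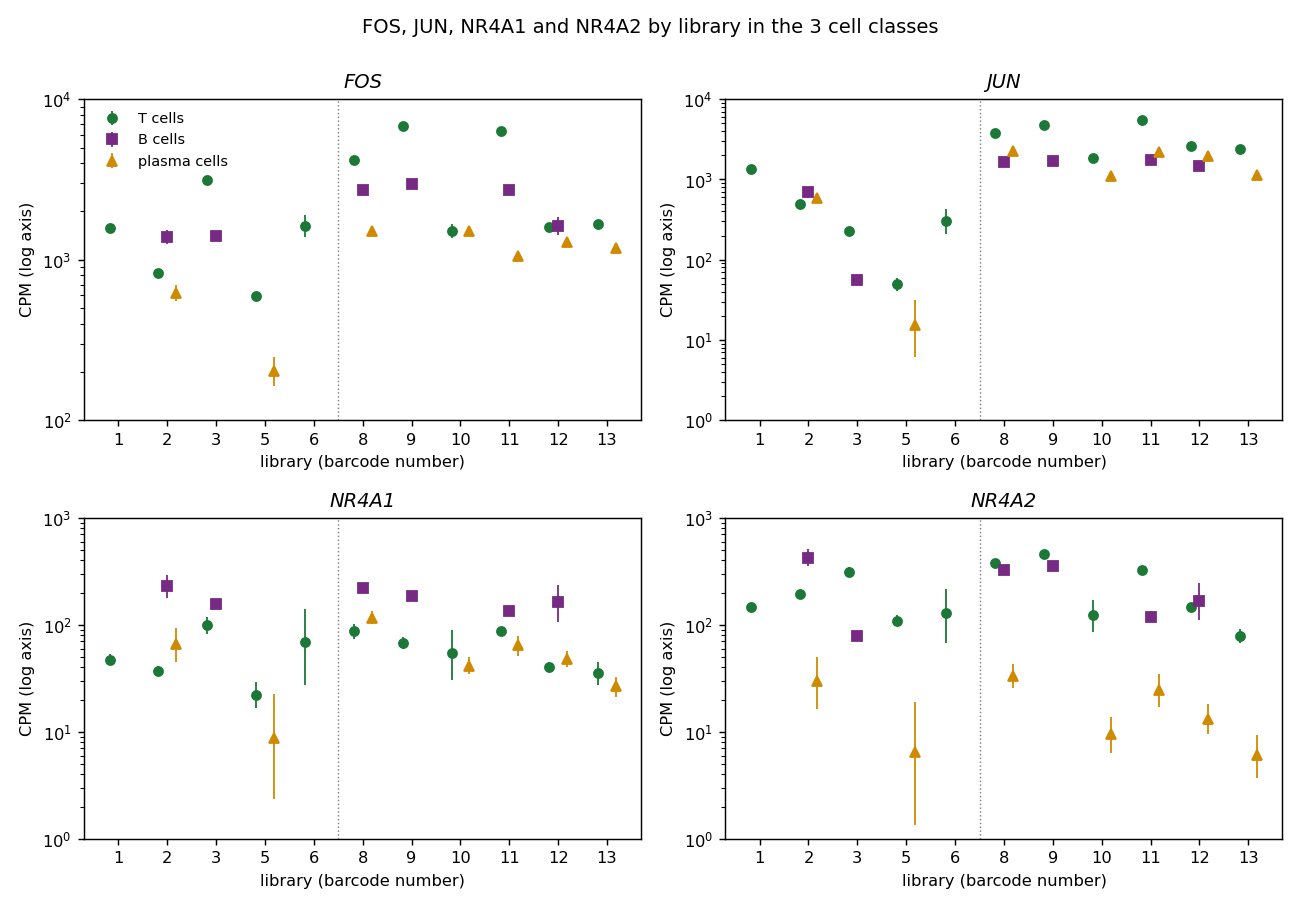
FOS, JUN, NR4A1 and NR4A2 by library, in CPM on a log axis, with circles for T cells, squares for B cells and triangles for plasma cells. Bars are 95% Poisson intervals, and the dotted line parts libraries 1 to 7 from libraries 8 to 13. JUN ranges from 49.5 to 5500 CPM in T cells and is lower in libraries 1 to 7 than in libraries 8 to 13 in all 3 classes. Within libraries 8 to 13 JUN in B cells stays between 1471 and 1766 CPM. NR4A1 in B cells stays between 135 and 231 CPM in both barcode sets.

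Taken over both barcode sets together, differences between libraries were larger than those between classes for most members. In T cells all 9 measured members spread at least 4-fold over the 11 libraries, where 55.4% of 6140 genes did and the median gene spread 4.43-fold. JUN (111-fold), ATF3 (134-fold), DUSP1 (17.4-fold), FOSB (14.0-fold) and FOS (11.4-fold) spread most among those with UMIs in every library. NR4A1 (4.47-fold) and NR4A2 (5.86-fold) lay near the median gene. Within libraries 1 to 7, 6 of 7 measured members reached 4-fold, where 31.6% of genes did. Within libraries 8 to 13, 5 of 10 did (FOS, FOSB, JUNB, EGR1 and NR4A2), where 7.72% of genes did. The low end in T cells was library 5 for FOS, FOSB, JUN, ATF3, NR4A1 and DUSP1, and the high end for FOS, JUN and DUSP1 was library 9 or 11.

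Part of the spread ran with the barcode sets. In T cells the 6 libraries of the second barcode set all lay above the 5 of the first for 4 of 9 measured members (JUN, JUNB, JUND and ATF3), where 17.9% of genes did so, and all lay below for 0, where 3.49% did. For ATF3 the gap was narrow, 153 CPM in library 11 against 152 CPM in library 1. FOS, FOSB, NR4A1, NR4A2 and DUSP1 overlapped between the sets. Library 1 of the first set, with 1572 CPM of FOS, 1342 CPM of JUN and 942 CPM of DUSP1, stood above libraries 2, 3, 5 and 6 in JUN and DUSP1, but below libraries 3 and 6 in FOS.

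JUN kept nearly the same order of libraries in every class. Of the 15 pairs of libraries with both T and B cells, 15 were ordered alike in the 2 classes for JUN, 14 for FOS and 4 for NR4A1, against a median of 11 over all measured genes. Of the 21 pairs with T and plasma cells, 20 were ordered alike for JUN, 20 for NR4A2 and 14 for FOS, against a median of 14. When the log2 levels in T and plasma cells were parted into library, class and rest, the libraries took 95.4% of the variance of JUN and 95.9% of that of ATF3, against 27.2% for the median gene. NR4A2 had 80.8% between classes, where the median gene had 63.2%. Within libraries 8 to 13 alone these shares were 80.9% and 85.4%. In T and B cells NR4A1 had 73.1% between classes and 9.06% between libraries, where the median gene had 11.9% and 64.0%. Within libraries 8 to 13 alone, libraries took 52.7% of the variance of JUN in T and plasma cells (median gene 8.46%). In T and B cells they took 12.4% of it (median gene 34.3%), and classes took 82.9% (median gene 34.8%). In B and plasma cells of libraries 8 to 13 classes took more than libraries for FOS, JUN, JUNB, ATF3, NR4A1 and NR4A2. Classes took less there for FOSB, JUND, EGR1 and DUSP1.

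In T cells heat shock transcripts, which tissue handling is known to induce as it does the members, were not highest in the libraries where the members were. The heat shock genes found summed to 11732, 11326 and 10776 CPM in the T cells of libraries 3, 6 and 5, and to 5855 to 8736 CPM in the other 8 libraries. The 10 members summed to 14389, 14143 and 10576 CPM in the T cells of libraries 11, 9 and 8, and to 913 CPM in those of library 5, where they were lowest. Library 5 thus had few of the members' UMIs and many heat shock UMIs, while libraries 8, 9 and 11 had 8454, 8736 and 7738 CPM of heat shock genes. Plasma cells differed, with libraries 8 and 12 highest in both lists. They had 10282 and 8606 CPM of heat shock genes and 5756 and 4578 CPM of the members. In B cells library 3 had the highest heat shock sum (10274 CPM) and the lowest sum of the members (1962 CPM). The part of handling in these levels was not tested. Myeloid markers summed to 3644, 1810 and 1613 CPM in the T cells of libraries 1, 5 and 12, against 0 to 8.95 CPM in the other 8. These 3 libraries do not share a level of the members, and the markers' part in it was not tested.

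**Figure D4:**
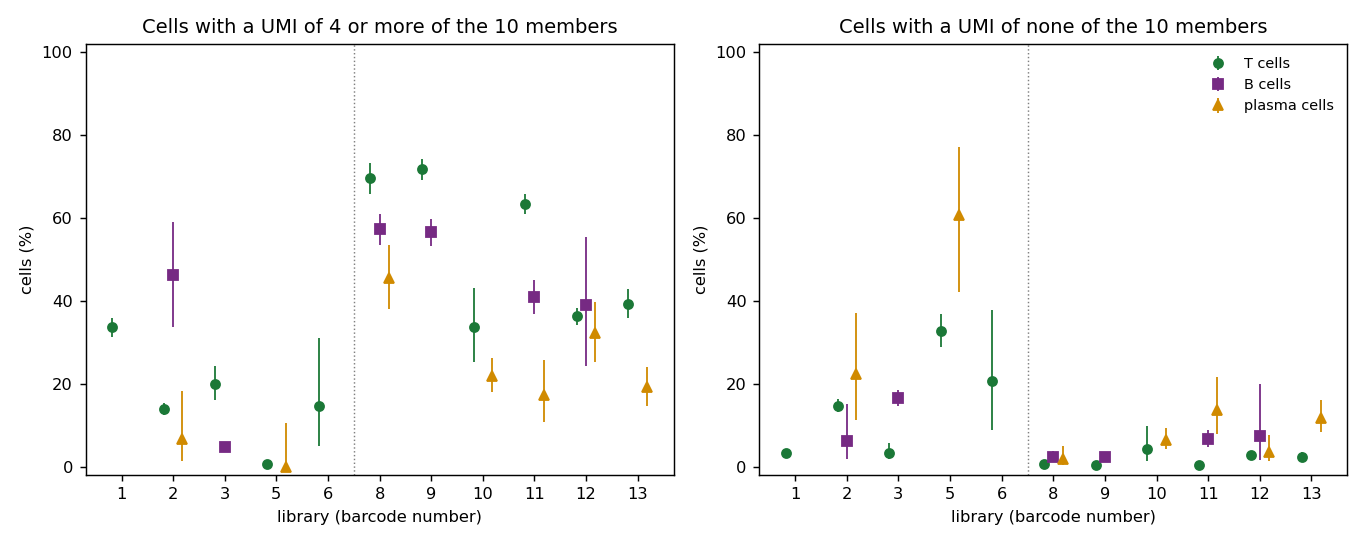
Percent of cells with a UMI of 4 or more members (left) and of none (right), by library, after every cell was thinned to 1500 UMIs. Circles are T cells, squares B cells and triangles plasma cells, with 95% binomial intervals. In T cells, 0.542% of library 5 and 71.8% of library 9 had 4 or more members.

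To compare cells of unequal depth, each was thinned to 1500 UMIs, and no cell was too shallow for this. A UMI of at least 4 of the 10 members was then found in 63.4% to 71.8% of T cells of libraries 8, 9 and 11, in 33.6% to 39.3% of those of libraries 1, 10, 12 and 13, in 13.8% to 19.9% of those of libraries 2, 3 and 6 and in 0.542% (95% interval 0.112 to 1.57) of those of library 5. None of the members was found in 32.7% of T cells of library 5 and in 0.313% of those of library 11. The high levels of libraries 8, 9 and 11 were therefore carried by most of their T cells. In B cells 4 or more members were found in 57.2%, 56.5% and 40.8% of libraries 8, 9 and 11, and in 4.69% of library 3. Libraries 2 and 12 had 46.2% (33.7 to 59.0) and 39.0% (24.2 to 55.5) of their B cells. Library 2, low in T cells, was thus not low in B cells.

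Over all libraries NR4A2 had a UMI in 25.1% of 11234 T cells (24.3 to 26.0), 25.7% of 3780 B cells (24.3 to 27.1) and 2.34% of 1241 plasma cells (1.57 to 3.34). Unthinned, the shares were 42.1%, 42.4% and 11.8%. NR4A1 had a UMI in 6.81% of T cells, 22.9% of B cells and 7.98% of plasma cells (13.1%, 40.4% and 29.1% unthinned). ATF3 had one in 15.9% of T cells, 7.99% of B cells and 33.8% of plasma cells (25.5%, 13.2% and 62.7% unthinned). FOS and JUN were found in 77.3% and 73.0% of T cells, in 79.0% and 47.2% of B cells and in 62.2% and 66.5% of plasma cells, which were 87.9% and 83.5%, 91.6% and 59.7%, and 86.5% and 89.2% unthinned. These shares pool libraries whose mix differs between classes. None of the classes is known to lack these genes, so the part of free RNA in the droplets has no class to be read from. NR4A2 in plasma cells was the lowest of these shares at the same thinned depth.

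**Figure D5:**
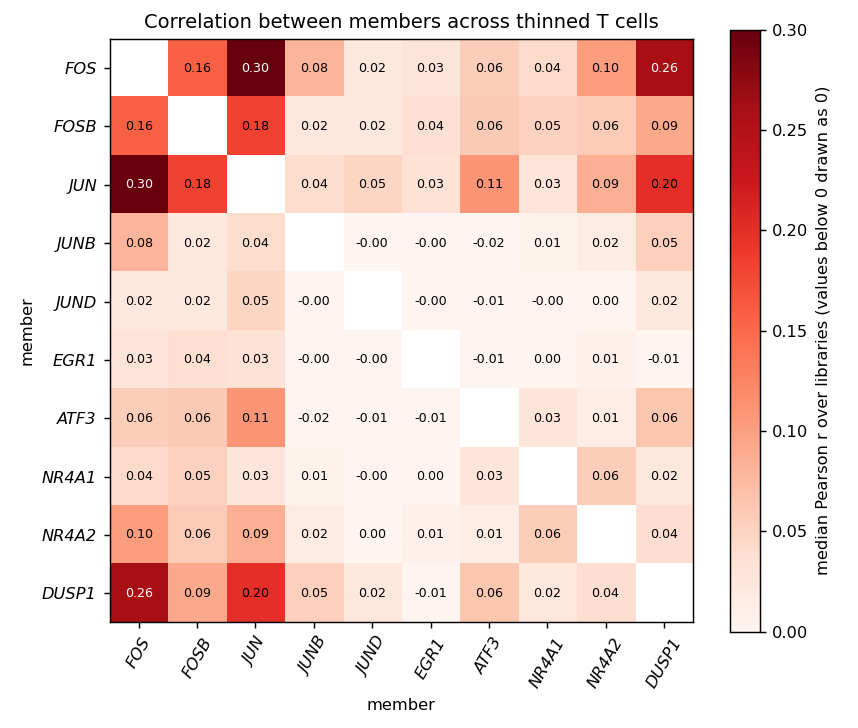
Pearson correlation between each pair of members across single T cells thinned to 1500 UMIs, as the median over libraries with at least 100 T cells. Darker red is a higher median r, values below 0 are drawn as 0, and the diagonal is left empty. FOS, JUN and DUSP1 form the darkest block, with medians between 0.20 and 0.30.

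Within libraries, FOS, JUN and DUSP1 went together from T cell to T cell. The median Pearson r over 10 libraries was 0.30 for FOS with JUN (0.02 to 0.42), 0.26 for FOS with DUSP1 (0.06 to 0.36) and 0.20 for JUN with DUSP1 (0.05 to 0.28). Cells of a library share its depth, and these values come from sparse counts. Among 2974 genes found in at least 5% of T cells, those most alike to FOS after these were ZFP36 (0.23), an mRNA decay factor, CD69 (0.19), an early activation and tissue retention marker, and EIF1 (0.17). Those most alike to JUN after FOS were SERTAD1 (0.21), DUSP1, ZFP36 (0.19) and FOSB (0.18). Next to DUSP1 stood ZFP36 (0.16), NFKBIA (0.13), the inhibitor of NF-kB, and TSC22D3 (0.12), a glucocorticoid target. NR4A1 had no gene above a median r of 0.059, reached by ZFP36, and its r with FOS was 0.04, which is too weak to read.

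Over the 24 combinations of library and class, the genes whose CPM ranked most like the summed members were SIK1, a kinase induced by cAMP (Spearman rho 0.91), TIPARP (0.90), SRRM2 (0.89), NUFIP2 (0.89) and BRD1 (0.89), where the median of 5954 genes was 0.34. These 24 profiles share libraries and are no independent samples, and a gene that is low in plasma cells and differs between the barcode sets would rank high. Of the members themselves NR4A1 (0.42), ATF3 (0.52) and NR4A2 (0.55) ranked least like the sum that they are part of.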

How the data were processed

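The authors deposited a matrix of raw UMI counts for genes and barcodes. Its header gives software version 3.1.0, and the submitters' processing notes list Cell Ranger at that version. They also deposited, for the cells they kept, corrected counts on a natural log scale (1 added before the log). The genome build, the annotation and the correcting step are not stated in the labels or headers. Those notes also list Seurat 3.1. All levels come from the raw counts of the 20606 kept cells, less 39 of library 4. The corrected counts served as an alternative. Every kept cell had at least 800 genes. Per-library depth was 3128386 to 19655788 UMIs.

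Gated cells were summed per library and class with numpy 2.4.6 and scipy 1.17.1 (Python 3.11.15), and ratios took 0.5 UMI added to each count. No count model was fitted, because no library has a label. The code was checked on simulated counts with known folds. The members, the gene lists and the gates were chosen with earlier results of these data known. All 10 members are named, and other genes are named where they have the highest or lowest median of a list, or the 5 highest correlations with FOS, JUN, NR4A1, DUSP1 or the summed members. FOSL2, KLF4, DUSP2, SGK1, NR4A3, MAF, CREM, BATF, BATF3, BACH2, DDIT3, TNFAIP3, REL, RELB, MAP2K1 and RPS6KA3 were named after their values were seen. The symbol of CD8B came from a table of gene names. Alternatives changed the scale, the gates, the cells, the pseudocount, the filter and the libraries. No sequence was printed, and coordinates were not used.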

Additional observations from a re-analysis of the deposited data

Results flagged for a closer look

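Within a barcode set, 4 of 40 looked-at combinations of gene, class and set had a library far from the rest by a fixed cut-off. The nominal rate of that cut-off, 1 in 20, cannot be used here, since the combinations share libraries and some hold counts of 0. In plasma cells of libraries 8 to 13, library 8 stood above the other 4 with 680 CPM of DUSP1, the next being 331 CPM, and with 504 CPM of FOSB, the next being 242 CPM. In T cells of libraries 8 to 13, library 11 had 41.3 CPM of EGR1, against 10.4 CPM in the next. In T cells of libraries 1 to 6, library 2 had 0.438 CPM of JUND (4 UMIs) and the others had 0. With 0 in all the others, any UMI in library 2 would have passed the cut-off.

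The T over plasma ratio of JUND was positive in all 5 libraries of the second barcode set (median 1.38) and negative in both libraries of the first (-1.76), a difference of 3.14 that was not tested. The first-set values come from 4 and 0 UMIs in T cells against 0 in plasma cells of both, so their sign is set by the 0.5 UMI added.

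2 libraries entered no comparison. The summed members stood at 2368 CPM in the 29 kept cells of library 7, where no class had 20 cells, and at 4445 CPM in the 39 kept cells of library 4, which shares its barcodes with library 6. Both are far above the level of 3 UMIs.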

How the results depend on the processing

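No paired analysis was possible because the replicate numbers of the labels cannot be tied to barcode numbers. The ratios between classes are themselves taken within a library. The median log2 ratio of the summed members was 0.90 in T over B, 0.77 in T over plasma, 0.33 in B over plasma and 0.08 in CD8 T over CD4 T cells. Leaving out each library in turn gave 0.70 to 1.10, 0.57 to 0.83, 0.17 to 0.48 and 0.04 to 0.08. As UMIs per cell, the ratio over plasma cells turned to -0.96 for T and -1.13 for B cells, since plasma cells hold more UMIs, and less the median of all genes to -0.84 and -1.40. In the first barcode set, which has 1 library with both B and plasma cells, B over plasma was 1.24. Of the members with 1 sign in every library, those whose median changed side on these scales were, in T over plasma cells, FOS (-0.86 as UMIs per cell and -0.83 less the median of all genes) and DUSP1 (-1.31 and -0.75), and in B over plasma cells FOS (-0.38 and -0.61), FOSB (-1.12 and -1.30), JUNB (-0.37 and -0.20), JUND (-0.69 and -0.83), NR4A1 (-0.38 and -0.28) and DUSP1 (-1.09 and -1.05). Of the others, FOSB (-1.10 and -0.89), JUN (-1.07 and -0.69), JUND (-0.83 and -0.67) and NR4A1 (-1.70 and -1.26) also changed side on both scales in T over plasma cells, JUNB as UMIs per cell (-0.13), and EGR1 in B over plasma cells less the median of all genes (-0.0078). Of 600 medians of single members under other settings, 530 moved by less than the spread over libraries.

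The count of members with 1 sign in every library moved by over 1.5 times under these settings, and where fewer libraries or cells remain the construction itself shifts it. In T over B cells it was 2, against 1 with 1 CPM added, 1 with thinned cells, 1 in the first barcode set and 6 in the second (2 to 6 when each library was left out, 6 without library 2). In T over plasma cells it was 3, against 5 as UMIs per cell, 1 with thinned cells, and 6 with at least 50 cells and in the second barcode set, which are the same 5 libraries (3 to 4). In B over plasma cells it was 7, against 3 with stricter gates, 1 with cells of several gates kept and 3 with all barcodes (7 to 9). In CD8 T over CD4 T cells it was 2, against 1 as UMIs per cell, less the median of all genes, with thinned cells and with cells of several gates kept, and 5 in the second barcode set (2 to 3). Where the construction does not show it, the cause was not tested.

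Over the same settings the genes higher and lower in every library numbered 520 to 1458 (main 861) and 105 to 2288 (1247) in T over B, 732 to 5803 (4030) and 191 to 1523 (296) in T over plasma, 219 to 8900 (4241) and 21 to 1498 (259) in B over plasma, and 62 to 611 (105) and 139 to 941 (214) in CD8 T over CD4 T cells. As UMIs per cell the split was 520 higher and 1749 lower in T over B, 732 and 1523 in T over plasma, 1173 and 1350 in B over plasma, and 62 and 235 in CD8 T over CD4 T cells. JUNB, JUND and EGR1 are limited by depth: a library with few UMIs of them has a sign set by the 0.5 UMI added.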
